A study of Oryctolagus cuniculus with 2 samples.

Results

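Müller glia of the rabbit retina were examined in nuclei of CLRN1 knockout (KO) and wild-type (WT) animals, as the 185 of 6542 nuclei to which the authors' deposited annotation gives the cell type Müller glia. All 185 lie in 1 deposited cluster, with 54 nuclei in the CLRN1 KO library and 131 nuclei in the WT library. Müller glia are the radial glia of the retina. Their processes run from the inner to the outer limiting membrane, take up glutamate and potassium released by neurons, support the recycling of visual pigment and respond to photoreceptor injury. CLRN1 encodes clarin-1, a small membrane protein that is lost in a form of Usher syndrome with deafness and retinal degeneration, and in mouse and human retina its transcripts have been assigned mainly to Müller glia.

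The CLRN1 KO library held nuclei of 3 knockout rabbits and the WT library nuclei of 3 wild-type rabbits, all aged 10 months. From each animal a 5 mm piece of the visual streak, the band of highest cell density in the rabbit retina, had been frozen, and nuclei of the 3 animals were mixed before capture. Polyadenylated transcripts of the nuclei were counted from their 3-prime ends in droplets (10x Genomics). Each genotype was therefore 1 library of pooled animals. Effects of the genotype, of the 3 animals in a pool and of the library itself cannot be told apart. No test was possible, no p-value is given, and all intervals are 95% intervals that cover counting error only. The deposited matrix numbers its rows in place of gene names, so the level of CLRN1 could not be used to check the genotype labels, and rows are called here by labels that are explained where they first appear.

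Captured transcripts were counted by their unique molecular identifiers (UMIs), of which 8233524 came from 3058 nuclei in the CLRN1 KO library and 6916018 from 3484 nuclei in the WT library. Matrix columns were tied to nuclei by position. Totals and numbers of detected rows were equal for 6542 of 6542 nuclei, and this pair of values was unique to its nucleus for 183 of the 185 Müller glia. A set of 10 rows summed to the deposited mitochondrial UMI count in every nucleus. The libraries shared 5 cell barcodes, of which 0 belonged to Müller glia. In both libraries together, other deposited types comprised 4296 rods, 305 cones, 222 bipolar cells, 181 horizontal cells, 1029 amacrine cells and 324 retinal ganglion cells.

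The comparison asked how Müller glia differed within and between the libraries. Müller glia were 1.77% of CLRN1 KO nuclei (interval 1.33 to 2.30%) and 3.76% of WT nuclei (3.15 to 4.45%). They carried 180519 UMIs in the CLRN1 KO library, 2.19% of all its UMIs, and 262018 UMIs in the WT library, 3.79% of its total. The gap between libraries was thus smaller in transcripts than in nuclei. The median depth was 2597 UMIs per nucleus in the CLRN1 KO library (interval 2292 to 3021) and 1622 in the WT library (1374 to 2027).

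The annotation was compared with the authors' module scores. These give for each nucleus the mean log-normalised level of a short list of rows minus that of control rows. The scores may have served in assigning the cell types, so a match is not an independent check. The Müller score was the highest of the 9 deposited scores in 36 of 54 CLRN1 KO nuclei (66.7%, interval 52.5 to 78.9%) and in 93 of 131 WT nuclei (71.0%, 62.4 to 78.6%). Outside Müller glia it was the highest in 198 of 6357 nuclei, or 3.11%. Most of the remaining Müller glia had the rod score as their highest, 15 nuclei in the CLRN1 KO library and 30 in the WT library. Bipolar, cone, horizontal or general photoreceptor scores led in the other few. The Müller score thus led in most, not all, of these nuclei, and the nuclei in which another score led were described together with the rest.

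The score lists are not named in the deposited files, but the matrix allowed their rows to be found. For the Müller score, 5 rows with equal weights (0.198 to 0.203, next row 0.0056) accounted for 99.6% of the variance of the score across nuclei, together with control rows. These are called M1 to M5, or the Müller panel. The rod score came from 6 rows, called R1 to R6 or the rod panel. The microglia panel of 7 rows had 0 UMIs in Müller glia of either library. The upper limit of its level was 0.204 UMIs per 10000 in the CLRN1 KO library and 0.141 in the WT library.

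The Müller score ranged widely within each library. It had a median of 1.24 in CLRN1 KO nuclei, with quartiles of 0.50 and 1.79, and a median of 1.39 in WT nuclei, with quartiles of 0.67 and 1.81. The difference of medians, KO minus WT, was -0.15 on this log scale, smaller than the distance between the quartiles in either library. The rod score had a median of -0.00 in CLRN1 KO nuclei and 0.21 in WT nuclei, a difference of -0.22. Its quartiles were -0.31 and 0.72 in the CLRN1 KO library and -0.09 and 0.82 in the WT library. Across nuclei, Müller and rod score ran against each other, with a Spearman correlation of -0.62 over 54 CLRN1 KO nuclei and -0.30 over 131 WT nuclei. These points share a library, vary in depth and are described without a test.

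The relation of the scores to depth was not a straight line. Over nuclei with 2000 to under 4000 UMIs the median Müller score was 1.60 in 27 CLRN1 KO nuclei and 1.69 in 47 WT nuclei. At 4000 or more UMIs it was only 0.48 in 11 CLRN1 KO nuclei and 0.76 in 8 WT nuclei. The median rod score went the other way between these classes. It was -0.29 in CLRN1 KO and -0.05 in WT nuclei of 2000 to under 4000 UMIs, and 0.86 in CLRN1 KO and 0.66 in WT nuclei of 4000 or more. At 1000 to under 2000 UMIs the median Müller score was 0.94 in 15 CLRN1 KO nuclei and 1.29 in 48 WT nuclei, while median rod scores were 0.23 in CLRN1 KO and 0.27 in WT nuclei. Only 1 CLRN1 KO nucleus had under 1000 UMIs, against 28 WT nuclei.

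**Figure D1:**
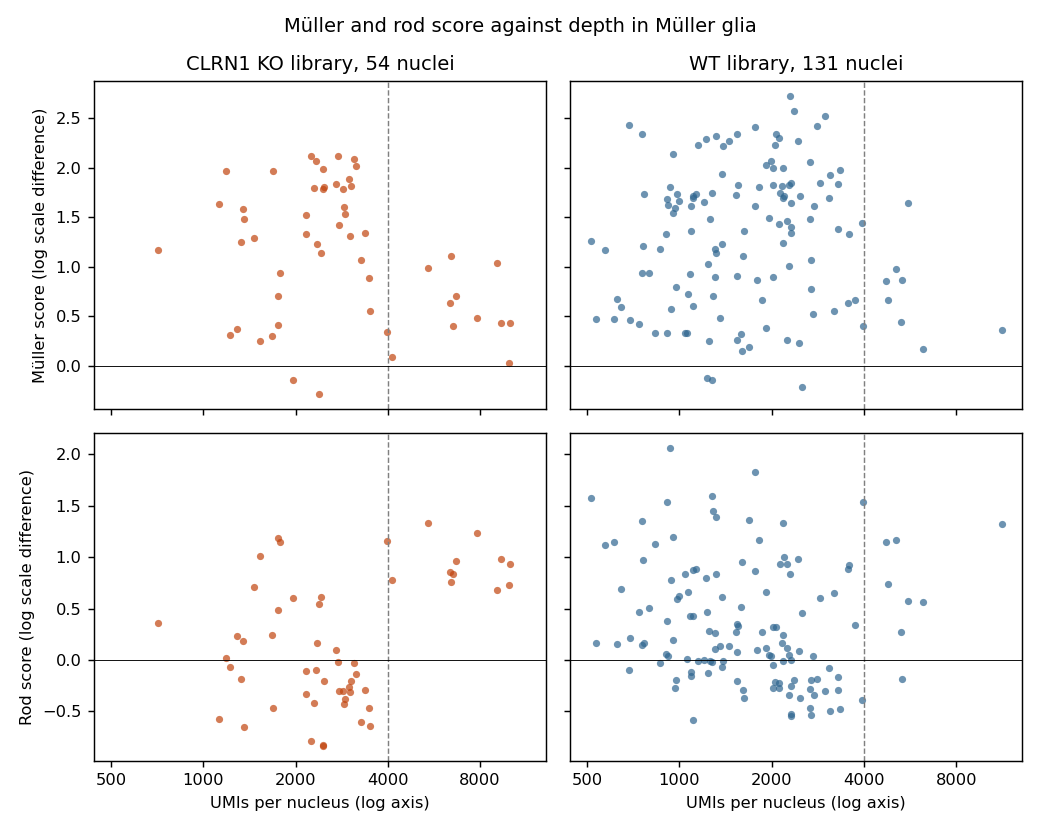
Müller score (upper row) and rod score (lower row) of each Müller nucleus against its UMIs on a log axis, for 54 CLRN1 KO nuclei (left) and 131 WT nuclei (right). The dashed line marks 4000 UMIs; to its right all 11 CLRN1 KO nuclei have a rod score of at least 0.68, and 7 of the 8 WT nuclei lie above 0.

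The nuclei with 4000 or more UMIs mostly had low Müller and high rod values, which part of the shallower nuclei shared. They were 20.4% of Müller nuclei in the CLRN1 KO library and 6.11% in the WT library, yet held 81837 of the 180519 Müller UMIs in the CLRN1 KO library and 48351 of 262018 in the WT library. In the 11 CLRN1 KO nuclei the rod panel lay between 69.9 and 180.9 UMIs per 10000 UMIs of the nucleus, with a median of 104.9, against a median of 13.8 in the 43 shallower CLRN1 KO nuclei. In the 8 WT nuclei it lay between 13.1 and 176.6 with a median of 81.5, against 40.6 in the 123 shallower WT nuclei. The Müller score was the highest score in 2 of the 11 CLRN1 KO and 2 of the 8 WT deep nuclei, but in 24 of 27 CLRN1 KO and 39 of 47 WT nuclei with 2000 to under 4000 UMIs. In the authors' embedding the deep nuclei lay towards one end of the Müller group. Their second coordinate had a median of -1.005 in CLRN1 KO and -0.98 in WT nuclei, against -0.32 in shallower CLRN1 KO and -0.18 in shallower WT nuclei. No doublet caller was run. How the authors treated doublets is not stated in the labels, and the part of doublets in these values was not tested.

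A larger set of rows that mark Müller glia was taken from the matrix itself. Rows counted as Müller-leading when their share of UMIs, averaged over both libraries, was at least 4 times that in each other type. There were 127 such rows with at least 50 UMIs, of which 2 belong to the Müller panel. Since they were chosen from these nuclei, their high level in Müller glia is not a finding, and only how they vary among the nuclei and between the libraries is described. They made up 5.49% of Müller UMIs in the CLRN1 KO library (interval 5.38 to 5.596%) and 7.44% in the WT library (7.34 to 7.55%). In other types they were at most 0.53% of UMIs.

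Single nuclei differed far more than the libraries did. Müller-leading rows took between 0.90 and 12.3% of the UMIs of a CLRN1 KO nucleus, with a median of 7.88%, and between 1.39 and 14.3% in WT nuclei, with a median of 10.0%. At least 5% was reached by 35 of 54 CLRN1 KO nuclei (64.8%, interval 50.6 to 77.3%) and 98 of 131 WT nuclei (74.8%, 66.5 to 82.0%), and by 0 of 6357 nuclei of the other types. The rows were chosen for low shares in those types, so the last count is not a finding. Under 4000 UMIs the shares of nuclei were 34 of 43 (79.1%) in the CLRN1 KO and 97 of 123 (78.9%) in the WT library. With 4000 or more UMIs they were 1 of 11 in the CLRN1 KO and 1 of 8 in the WT library. The medians per nucleus were then 9.49% in CLRN1 KO and 10.2% in WT nuclei under 4000 UMIs, and 1.58% in CLRN1 KO and 1.70% in WT deep nuclei.

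Nuclei with a low share of Müller-leading rows tended to have a high rod panel. The Spearman correlation between both was -0.78 over 54 CLRN1 KO nuclei and -0.60 over 131 WT nuclei, and it was -0.67 over 43 CLRN1 KO and -0.59 over 123 WT nuclei under 4000 UMIs. Both measures are shares of the same UMIs, so one can only grow at the cost of others. Among CLRN1 KO nuclei under 5%, 16 of 19 had a rod panel of at least 50 UMIs per 10000, against 4 of 35 above that share. In the WT library this held for 25 of 33 nuclei under 5% and 34 of 98 above it. Low shares were not limited to deep nuclei. Under 4000 UMIs, 9 CLRN1 KO and 26 WT nuclei had a share under 5%, with a median rod panel of 81.4 UMIs per 10000 in the CLRN1 KO and 73.9 in the WT nuclei and a median Müller score of 0.34 in the CLRN1 KO and 0.44 in the WT nuclei.

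**Figure D2:**
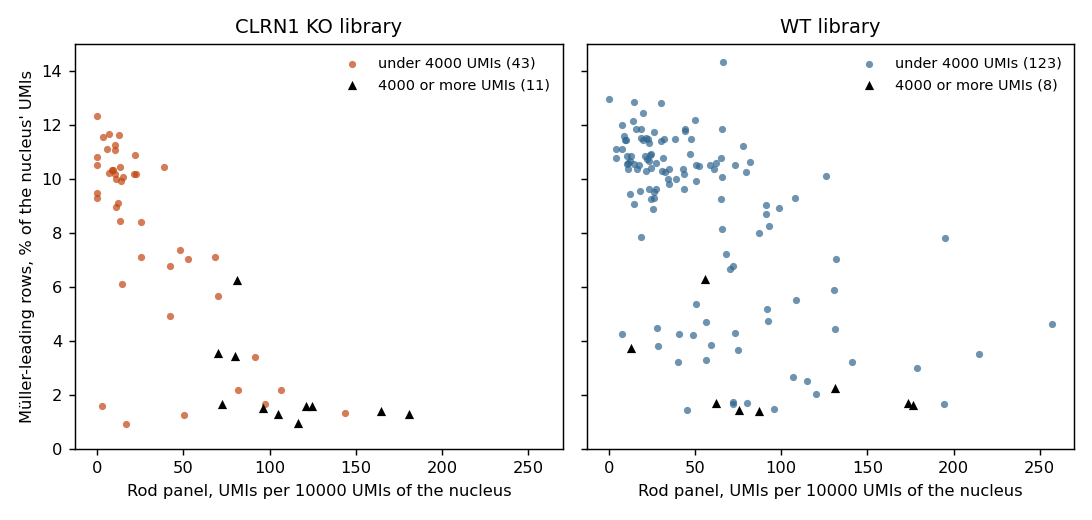
Share of each nucleus' UMIs in the 127 Müller-leading rows (vertical axis, %) against its rod panel level (horizontal axis, UMIs per 10000), for CLRN1 KO Müller glia (left) and WT Müller glia (right). Triangles are nuclei with 4000 or more UMIs; 10 of 11 in the CLRN1 KO library and 7 of 8 in the WT library lie below 5%.

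The summed level of the Müller panel also moved when those deep nuclei were left out. Over all nuclei the panel stood at 28.7 UMIs per 10000 in CLRN1 KO Müller glia (interval 26.3 to 31.3) and 41.3 in WT Müller glia (38.8 to 43.8), a ratio of 0.696 (0.625 to 0.773). In rods, which the panel is not meant to mark, it stood at 2.42 in the CLRN1 KO and 2.64 in the WT library. Without the nuclei of 4000 or more UMIs the ratio was 0.894 (0.796 to 1.004), from 42.2 UMIs per 10000 in CLRN1 KO and 47.1 in WT nuclei. In the class of 2000 to under 4000 UMIs the levels were 46.3 in CLRN1 KO and 45.9 in WT nuclei, with overlapping intervals. At 1000 to under 2000 UMIs they were 27.6 (21.2 to 35.4) in CLRN1 KO and 47.2 (42.2 to 52.6) in WT nuclei, and these intervals did not overlap.

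For the rod panel the direction depended on the deep nuclei. Summed over all nuclei it was higher in the CLRN1 KO library, with 65.4 UMIs per 10000 against 59.3 in the WT library and a ratio of 1.10 (1.02 to 1.19). Under 4000 UMIs it was lower, with 27.7 in CLRN1 KO and 48.9 in WT nuclei and a ratio of 0.566 (0.493 to 0.647). That set held 28 WT nuclei under 1000 UMIs, at 71.3, and only 1 such CLRN1 KO nucleus. By class the ratio was 0.874 (0.703 to 1.08) at 1000 to under 2000 UMIs and 0.519 (0.431 to 0.623) at 2000 to under 4000. At 4000 or more UMIs it was 1.05 (0.945 to 1.18). The median over nuclei, 22.2 in the CLRN1 KO and 43.7 in the WT library, also ran opposite to the sum. The other types went in both directions. Rod panel levels were lower in the CLRN1 KO library in horizontal and amacrine cells, at 14.3 UMIs per 10000 in KO against 23.4 in WT horizontal cells, and 18.8 in KO against 25.2 in WT amacrine cells. Median depths were 3729 UMIs in KO and 2281.5 in WT horizontal cells, and 3217 in KO and 2522.5 in WT amacrine cells. They were higher in cones, at 116.0 in KO against 73.7 in WT, and in bipolar cells, at 66.0 in KO against 58.7 in WT. In ganglion cells, at 12.1 in KO and 11.6 in WT, the interval of the ratio spanned 1 (0.958 to 1.15). Rods themselves were at 138.1 UMIs per 10000 in the CLRN1 KO and 117.5 in the WT library. At least 1 rod panel UMI was found in 49 of 54 CLRN1 KO and 130 of 131 WT Müller nuclei, against 97.9% of KO and 99.3% of WT amacrine nuclei.

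**Figure D3:**
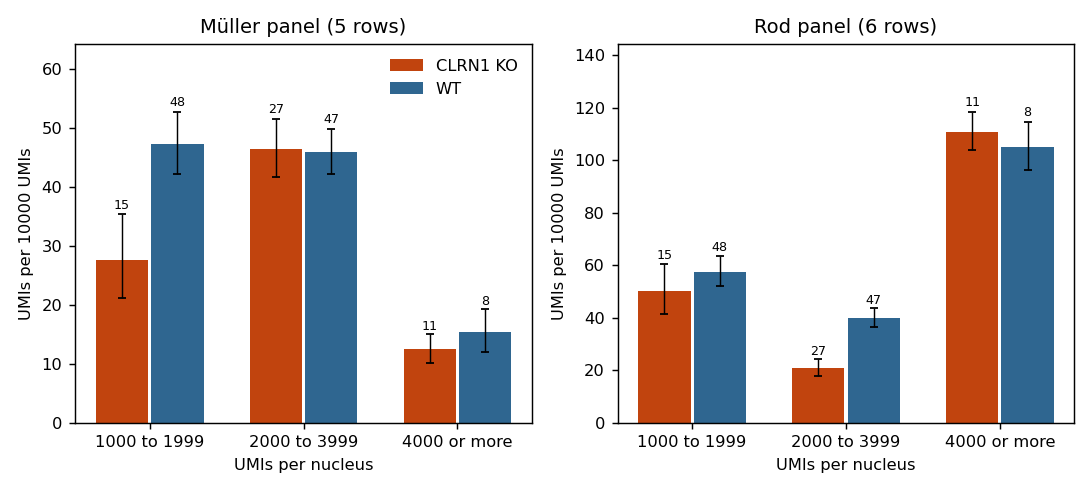
Müller panel (left) and rod panel (right) in Müller glia by UMIs per nucleus, as UMIs per 10000 with 95% Poisson intervals and numbers of nuclei above the bars. CLRN1 KO is left of WT in each pair; the Müller panel is lowest and the rod panel is highest at 4000 or more UMIs in both libraries.

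The mixture of rod panel rows was compared with that in rods and in amacrine cells, and for R1 with that in all types. R1 was 56.4% of rod panel UMIs in CLRN1 KO Müller glia (interval 53.5 to 59.2%) and 66.0% in WT Müller glia (63.6 to 68.4%). In rods it was 53.2% in the CLRN1 KO and 55.6% in the WT library, and in amacrine cells 63.3% in the CLRN1 KO and 65.6% in the WT library. R1 was 61.9% in KO and 69.0% in WT horizontal cells, and 67.4% in KO and 68.7% in WT ganglion cells. It was 51.2% in KO and 56.7% in WT bipolar cells, and 50.3% in KO and 54.0% in WT cones. Bipolar cells and cones were thus nearer to rods than to amacrine cells. R2 was 21.7% in KO and 14.8% in WT Müller glia, 22.5% in KO and 19.97% in WT rods, and 18.5% in KO and 14.9% in WT amacrine cells. For R1 and R2 the shares in WT Müller glia were thus close to those in WT amacrine cells. In KO Müller glia they lay between those of KO rods and KO amacrine cells, which did not hold for R4 and R6. Of the 1180 rod panel UMIs in KO Müller glia, 907 came from the 11 nuclei with 4000 or more UMIs. R1 was 55.9% in these and 57.9% in shallower KO nuclei, against 65.6% in deep and 66.2% in shallower WT nuclei. The part of free RNA in these values was not tested.

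The 5 Müller panel rows differed in direction and size. M1 had 129 UMIs in CLRN1 KO and 404 UMIs in WT Müller glia, or 7.15 against 15.4 per 10000, a ratio of 0.464 (interval 0.377 to 0.566). It was also lower under 4000 UMIs, with a ratio of 0.572 (0.456 to 0.712), and in the class of 2000 to under 4000 UMIs, with a ratio of 0.731 (0.564 to 0.941). At 1000 to under 2000 UMIs the ratio was 0.270 (0.136 to 0.486). At 4000 or more UMIs M1 was not lower, at 3.18 per 10000 in KO and 2.90 in WT nuclei. The ratio there was 1.10 with an interval that spanned 1 (0.552 to 2.27). After thinning each nucleus to 1000 UMIs, M1 was expected in 47.4% of CLRN1 KO and 63.9% of WT Müller nuclei, and in 1.62% of KO and 1.20% of WT rods. Unthinned, it was found in 66.7% of KO and 74.8% of WT Müller nuclei. In amacrine cells the M1 ratio was 0.989 (0.672 to 1.46), and its interval spanned 1 in each of the other types.

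M2 had 149 UMIs in CLRN1 KO and 318 in WT Müller glia, or 8.25 against 12.1 per 10000, a ratio of 0.680 (0.556 to 0.829). Under 4000 UMIs the ratio was 0.957 (0.774 to 1.18), from 13.5 UMIs per 10000 in CLRN1 KO and 14.1 in WT nuclei. M2 was also lower in CLRN1 KO amacrine cells, with a ratio of 0.413 (0.286 to 0.588), and rods, with a ratio of 0.764 (0.632 to 0.924). M4 had 105 UMIs in KO and 169 in WT Müller glia, or 5.82 against 6.45 per 10000, and its interval spanned 1 with all nuclei (0.7 to 1.16) and under 4000 UMIs (0.870 to 1.56). In amacrine cells M4 had a ratio of 1.78 (1.31 to 2.45).

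M3 was the row that stood higher in the CLRN1 KO library. It had 134 UMIs in CLRN1 KO and 157 in WT Müller glia, or 7.42 against 5.99 per 10000, a ratio of 1.24 with an interval that spanned 1 (0.976 to 1.57). Under 4000 UMIs the ratio was 1.56 (1.20 to 2.02). A UMI of M3 was found in 46 of 54 CLRN1 KO nuclei (85.2%) and 79 of 131 WT nuclei (60.3%), or, at 1000 UMIs, in 55.3% of CLRN1 KO and 45.6% of WT nuclei. It was found in 5.86% of KO and 7.32% of WT rods at that depth. Other types went in both directions. In amacrine cells M3 was at 1.98 UMIs per 10000 in the CLRN1 KO and 0.707 in the WT library, a ratio of 2.80 (2.24 to 3.52), and in ganglion cells the ratio was 2.91 (2.34 to 3.63). In horizontal cells it was 1.74 (1.06 to 2.95), and in rods 0.868 with an interval that spanned 1 (0.730 to 1.03). Bipolar cells had 0 UMIs of M3 in the CLRN1 KO and 10 in the WT library, with an upper limit of 0.589 for the ratio.

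M5 showed the widest gap. It had 1 UMI in 1 of 54 CLRN1 KO Müller nuclei and 33 UMIs in 25 of 131 WT Müller nuclei, a ratio of 0.0440 with a counting interval of 0.00108 to 0.263. At 1000 UMIs it was expected in 0.202% of KO and 13.1% of WT nuclei. Under 4000 UMIs it had 0 UMIs in 43 CLRN1 KO nuclei and 31 UMIs in WT nuclei, or 1.45 per 10000. A floor of 3 counts in these CLRN1 KO nuclei would be 0.304 per 10000. The WT level was 4.77 times that floor, without the counting error of the WT UMIs. The upper limit of the KO to WT ratio was 0.274. In other types the row was not lower in the CLRN1 KO library. Rods had 128 UMIs of it in the CLRN1 KO and 48 in the WT library, a ratio of 2.09 (1.49 to 2.98), and the counts were small in cones, 10 in KO against 2 in WT, and in bipolar cells, 5 in KO against 2 in WT. In WT rods a single nucleus held 17 of the 48 UMIs. In the WT library M5 was 13.1 times higher per UMI in Müller glia than in all other types together, and in the CLRN1 KO library 0.281 times as high. Whether its WT UMIs came from 1 animal of the pool could not be seen, since animals were not separated here.

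**Figure D4:**
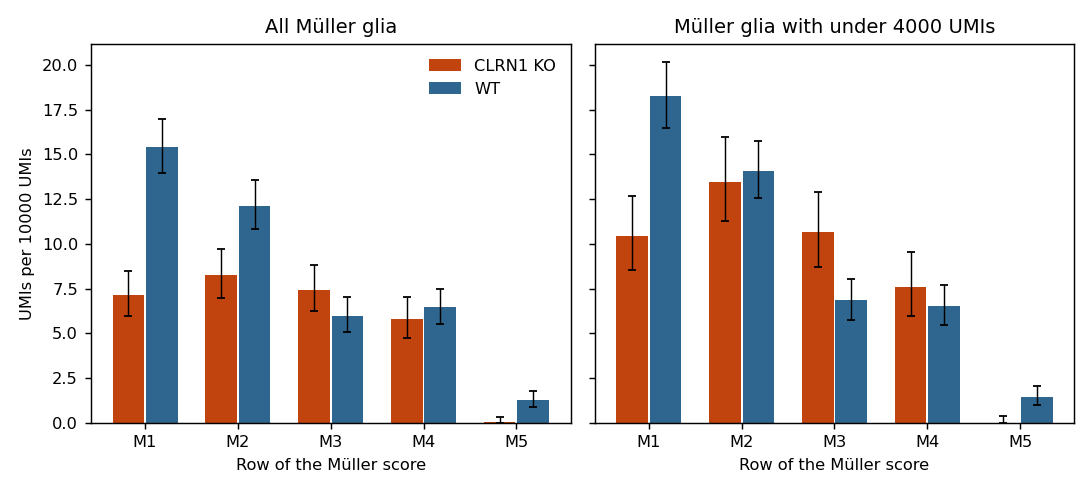
Levels of the 5 Müller panel rows, as UMIs per 10000 with 95% Poisson intervals, in all Müller glia (left) and in those with under 4000 UMIs (right), CLRN1 KO left of WT in each pair. M1 and M5 are lower in CLRN1 KO in both panels, whereas the gap in M2 is seen only with all nuclei.

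Despite these differences, 3 or more of the 5 panel rows were found together in 40 of 54 CLRN1 KO nuclei (74.1%, interval 60.3 to 85.0%) and 84 of 131 WT nuclei (64.1%, 55.3 to 72.3%). All 5 were found in 0 CLRN1 KO and 12 WT nuclei.

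Summed over nuclei, 1926 rows had at least 50 UMIs in Müller glia of both libraries together. Of these, 55 rows (2.86%) were 2-fold or more higher and 52 rows (2.7%) 2-fold or more lower in the CLRN1 KO library, and the median log2 ratio was 0.01. With TMM scaling the split was 39 higher and 67 lower. Among the 127 Müller-leading rows 0 were 2-fold higher and 15 were 2-fold lower (11.8%). The median log2 ratio of these rows was -0.37, with 102 below 0 and 25 above 0. Of the 52 lower rows, 28.8% were Müller-leading, against 6.59% of all rows compared.

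Over all nuclei with under 4000 UMIs the Müller-leading rows were split about evenly. Of 117 such rows with enough UMIs, 56 were below and 61 above 0, 4 were 2-fold lower and 4 were 2-fold higher, and the median log2 ratio was 0.02. Their summed share was 8.17% of UMIs in CLRN1 KO and 8.58% in WT nuclei, a ratio of 0.952 with an interval below 1 (0.927 to 0.978). The depth classes within this set went in opposite directions. In nuclei of 2000 to under 4000 UMIs it was 8.72% in the CLRN1 KO and 8.55% in the WT library, with 36 of 89 rows below and 53 above 0 and a median log2 ratio of 0.15. At 1000 to under 2000 UMIs it was 6.403% in 15 CLRN1 KO nuclei and 8.39% in 48 WT nuclei. Of 37 Müller-leading rows in that class, 28 were below and 9 above 0, 6 were 2-fold lower and 0 2-fold higher. Their median log2 ratio was -0.45. The 239 rows with enough UMIs in that class also leaned down, with 21 (8.79%) 2-fold lower and 3 (1.26%) higher. Their median log2 ratio was -0.17, against -0.04 over 782 rows at 2000 to under 4000 UMIs. The class of 1000 to under 2000 held 22444 CLRN1 KO and 68054 WT UMIs, so rows reached the minimum mostly through WT UMIs. Over all 1281 rows with enough UMIs under 4000, 31 (2.42%) were 2-fold higher and 39 (3.04%) were 2-fold lower. Of the 52 rows lower over all nuclei, 39 still had enough UMIs and 16 were again 2-fold lower, and of the 55 higher rows 17 had enough UMIs and 11 were again 2-fold higher.

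**Figure D5:**
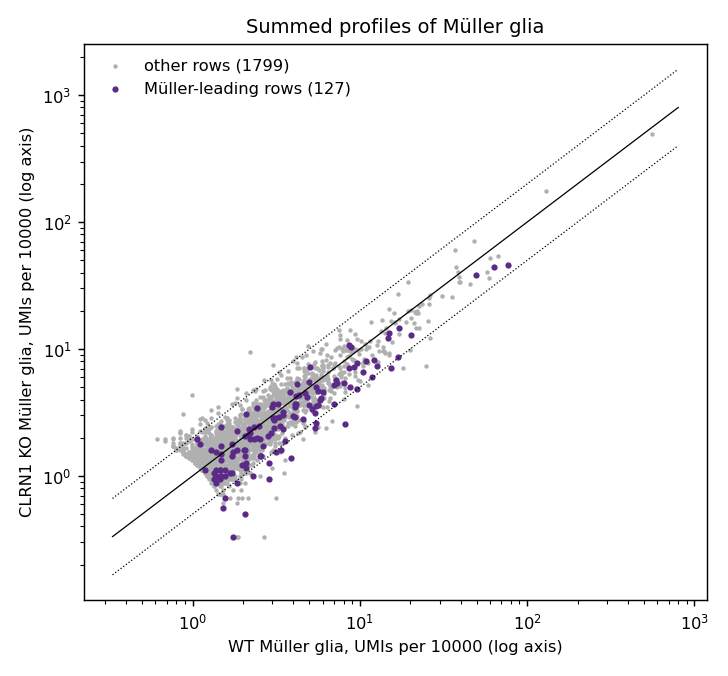
Summed level of each of 1926 rows in CLRN1 KO Müller glia (vertical, UMIs per 10000, log axis) against WT Müller glia (horizontal, log axis); the solid line is equality and the dotted lines are 2-fold. The 127 Müller-leading rows lie mostly below the line, with 102 below a log2 ratio of 0.

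The libraries were also compared at equal depth. Each type's summed profile was thinned to 180519 UMIs per library. Müller glia then had 40 rows 2-fold higher (2.53%) and 43 lower (2.72%) of 1582. Rods had 15 and 19 of 1611, cones 17 and 30 of 1509, and bipolar cells 42 and 22 of 1530. Horizontal cells had 61 and 69 of 1431, amacrine cells 64 and 20 of 1557, and ganglion cells 50 and 16 of 1392. Thinning equalised UMIs but not nuclei, which were 54 KO and 131 WT in Müller glia against 2059 KO and 2237 WT in rods. The part of nucleus number in these counts was not tested. The Pearson correlation of log2 levels, with a pseudocount of 1 and across rows that are not independent, was 0.877 between CLRN1 KO and WT Müller glia over these 1582 rows. Over their own rows, with the same minimum of 50 UMIs after thinning, it was 0.840 in horizontal cells, 0.879 in amacrine cells and between 0.891 and 0.904 in rods, cones, bipolar cells and ganglion cells. Over the 1926 rows compared before thinning it was 0.873 for Müller glia, and the following values are over those rows. The CLRN1 KO Müller profile was closer to rods of its own library (0.514) than the WT Müller profile was to WT rods (0.343). It was about as close to WT rods (0.511). The same order held for every other type within its own library, so it was not specific to rods. Bipolar cells had 0.461 in KO against 0.352 in WT, and horizontal cells 0.427 in KO against 0.393 in WT. Under 4000 UMIs the values for rods were 0.208 for the CLRN1 KO and 0.241 for the WT library. The KO value was then the lower one for every other type too. The correlation between the libraries' Müller glia was 0.851 under 4000 UMIs.

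The extreme single rows had no name and rested on few nuclei. The lowest were row 2063, with 6 UMIs in 5 CLRN1 KO nuclei and 70 UMIs in 11 WT nuclei (ratio 0.124, 0.0442 to 0.285), and row 3936, with 6 UMIs in 5 CLRN1 KO nuclei and 49 UMIs in 28 WT nuclei (0.178, 0.0622 to 0.415). Row 2063 was a horizontal cell row, at 91.4 UMIs per 10000 in KO and 52.3 in WT horizontal cells, and a single WT Müller nucleus held 17 of its 70 UMIs. The highest were row 1920, with 79 UMIs in 13 CLRN1 KO nuclei and 26 in 12 WT nuclei (4.41, 2.80 to 7.16), and row 2132, with 170 UMIs in 7 CLRN1 KO nuclei and 58 in 3 WT nuclei (4.25, 3.14 to 5.84). For row 2132 a single nucleus held 54 of the CLRN1 KO and another 53 of the WT UMIs.

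Rows led by rods at the same 4-fold limit, with Müller glia left out of the comparison, numbered 19, and none was a rod panel row. Their summed share in Müller glia was 0.239% of UMIs in the CLRN1 KO and 0.284% in the WT library, a ratio of 0.844 (0.748 to 0.952), and under 4000 UMIs the interval spanned 1. In rods it was 0.355% in the CLRN1 KO and 0.203% in the WT library. In the WT library the share was thus higher in Müller glia than in rods, so these rows do not separate rods from Müller glia. Only 3 of the 19 rows had at least 50 UMIs in Müller glia.

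Measures of nuclear quality differed less than depth. Detected genes per nucleus had a median of 1382.5 in CLRN1 KO and 970 in WT Müller glia, and genes per UMI a median of 0.529 in CLRN1 KO and 0.586 in WT nuclei. Genes per UMI were lower in deeper nuclei of both libraries, with a Spearman correlation of -0.91 over 54 CLRN1 KO and -0.84 over 131 WT nuclei. When each nucleus was rarefied to 1000 UMIs, the median was 677 genes in 53 CLRN1 KO nuclei (interval 667 to 703) and 664 in 103 WT nuclei (658 to 669). This left out 1 CLRN1 KO and 28 WT nuclei that were too shallow.

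Mitochondrial transcripts, which in nuclei come from carried-over cytoplasm, were scarce. The median share per nucleus was 0.0534% in CLRN1 KO and 0.0796% in WT Müller glia, and 20 CLRN1 KO (37.0%) and 42 WT (32.1%) nuclei had none. Pooled over UMIs the order was the opposite, with 0.295% in the CLRN1 KO and 0.217% in the WT library. Pooling gives deep nuclei more weight. At 4000 or more UMIs the highest share was 1.71% in the CLRN1 KO library, in a nucleus of 9125 UMIs, and 0.985% in the WT library. The pooled order without that CLRN1 KO nucleus was not tested. More than 1% was found in 3 of 54 CLRN1 KO nuclei (5.56%, interval 1.16 to 15.4%) and 7 of 131 WT nuclei (5.34%, 2.18 to 10.7%). In nuclei where another score than the Müller score was highest, the median share was 0.258% in the CLRN1 KO and 0.190% in the WT library, against 0.00777% in CLRN1 KO and 0.0619% in WT nuclei where the Müller score led. The value of 0.00777% is less than 1 UMI at the median depth of 2456 UMIs of those nuclei. Depth also differed. Nuclei with 4000 or more UMIs were 9 of 18 KO and 6 of 38 WT where another score led. They were 2 of 36 KO and 2 of 93 WT where the Müller score led.

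In the embedding nearly all Müller glia of both libraries lay in 1 group, but at somewhat different places within it. The median second coordinate was -0.39 in CLRN1 KO and -0.20 in WT nuclei, and 37.0% of CLRN1 KO and 15.3% of WT nuclei lay below -0.5. Within 1 unit of the median position of all Müller glia lay 52 of 54 CLRN1 KO nuclei (96.3%) and 126 of 131 WT nuclei (96.2%). Of the 15 nearest nuclei of a Müller nucleus, on average 96.3% were Müller glia for CLRN1 KO and 96.9% for WT nuclei. KO nuclei, which are 29.2% of all Müller glia, were 38.3% of the neighbours of CLRN1 KO nuclei and 28.2% of those of WT nuclei. With 5 neighbours these shares were 46.7% for CLRN1 KO and 24.6% for WT nuclei, and with 50 neighbours 34.6% for CLRN1 KO and 27.4% for WT nuclei. Beyond 2 units lay 2 nuclei of each library, among rods or amacrine cells, and their Müller scores were 0.31 and 0.55 in the CLRN1 KO and 0.26 and 0.44 in the WT library. The second coordinate was lower in deeper nuclei, with a Spearman correlation to UMIs of -0.49 over 54 CLRN1 KO and -0.74 over 131 WT nuclei. Under 4000 UMIs it was -0.15 over 43 CLRN1 KO and -0.69 over 123 WT nuclei.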

How the data were processed

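Per the submitters' processing notes, the build was OryCun2.0 and the tools were Seurat 4.3.0, Cell Ranger 7.0 and DESeq2 1.38.0, with no roles stated. The authors deposited raw UMI counts (a matrix of 15806 numbered rows and 6542 columns, and totals per nucleus), a mitochondrial percent per nucleus, 9 module scores, cell types, clusters and embedding coordinates. The deposited percent is of a nucleus' UMIs, and the deposited score is a difference of log-normalised means. Filters and any removal of doublets or free RNA are not stated there.

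Rows behind each score were found by forward selection, with 24 expression-bin means standing for control rows. The selection was tried on simulated lists, and the comparison of summed profiles on simulated counts. Outcomes of these trials are not reported here. A row was compared where it had at least 50 UMIs in Müller glia, as the log2 ratio of shares of summed UMIs with 0.5 UMI added. Shares have exact Clopper-Pearson intervals, levels exact Poisson intervals, ratios exact conditional intervals and medians order-statistic intervals, all at 95%. Nuclei were rarefied exactly, and profiles were thinned once with a fixed seed. Rows, at most 2 in each direction, were named by the largest absolute ratio. Members, lists and limits were chosen with earlier results of these data known, and the set under 4000 UMIs was taken after seeing the data. No column of values was left unassigned. Tools were Python 3.11.15, numpy 2.4.6, pandas 2.3.3, SciPy 1.17.1, matplotlib 3.10.9 and edgeR 4.0.16 for TMM factors.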

Additional observations from a re-analysis of the deposited data

How the results depend on the processing

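No paired analysis was possible because each genotype is 1 library of pooled animals. Differences between the libraries in share of nuclei, depth, both scores and rarefied genes kept their direction and stayed within their first counting interval under each alternative run. For both scores and rarefied genes that interval included both directions, so staying within it says little. It was -0.67 to 0.36 for the Müller score, -0.59 to 0.39 for the rod score and -0.0049 to 0.095 for the log2 ratio of rarefied genes. The Müller score difference was -0.15 at first and -0.02 under 4000 UMIs. In the embedding, 2 nuclei of each library had less than 50% Müller glia among their 5, 15 or 50 nearest nuclei. The mitochondrial difference, KO minus WT, was -0.0262 percentage points between medians and 0.0781 between pooled shares. The pooled value includes the deep CLRN1 KO nucleus with 1.71% mitochondrial UMIs. The values below are log2 ratios of KO over WT, or counts of rows. Müller-leading rows stood at -0.44 and moved to -0.40 with limits of 2 or 8 times, -0.29 as the mean of shares per nucleus, -0.30 without the 5 deepest nuclei of each library and -0.071 under 4000 UMIs. Rows led by rods with Müller glia left out of the comparison stood at -0.24. They moved to -0.44 with a limit of 8 times and -0.045 under 4000 UMIs. The summed rod panel, at 0.14, reversed to -0.30 as the mean of shares per nucleus, -0.18 without the 5 deepest nuclei of each library and -0.82 under 4000 UMIs. Rows 2-fold higher and lower, 55 and 52, were 219 and 162 with a minimum of 20 UMIs and 16 and 21 with a minimum of 100, where more or fewer rows are compared. Higher rows numbered 17 among nuclei whose Müller score was highest, a choice that uses the Müller panel itself, 29 without the 5 deepest nuclei of each library and 31 under 4000 UMIs. At 1000 to under 4000 UMIs there were 27 higher and 33 lower. For the other settings the cause was not tested. The 54 CLRN1 KO nuclei and 1 library per genotype limit every comparison.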

Other observations

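Besides the rod panel, panels of other retinal types were at most 5.61 UMIs per 10000 in Müller glia. The amacrine panel stood at 2.38 UMIs per 10000 in the CLRN1 KO and 1.64 in the WT library, with a ratio of 1.45 and an interval that spanned 1 (0.929 to 2.27). At least 1 of its UMIs was found in 31 of 54 CLRN1 KO nuclei (57.4%) and 32 of 131 WT nuclei (24.4%), at median depths of 2597 UMIs in CLRN1 KO and 1622 in WT nuclei. In rods, which should lack it, 15.4% of CLRN1 KO and 12.4% of WT nuclei had a UMI of it, at median depths of 1067 UMIs in KO and 869 in WT rods. Cone, bipolar and ganglion cell panels had ratios of 0.788, 0.849 and 0.656, all with intervals that spanned 1.

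A single matrix row held 4.92% of CLRN1 KO and 5.56% of WT Müller UMIs, and the same row was the most abundant in every other type of both libraries. The 5 deepest nuclei held 25.6% of Müller UMIs in the CLRN1 KO and 12.9% in the WT library.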
